A study of Mus musculus with 20 samples.

Results

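The genes described here are 36 cell cycle and kinetochore genes, chosen by name for their known roles and with earlier results of these data known, as measured in mouse liver on a low-fat and a high-fat diet. A gene was read from the probe sets whose annotation gives that 1 symbol alone, and where there were several, from the probe set with the highest mean over all 20 arrays. In this way 35 of the 36 genes were measured, out of 18193 genes in all; Ccnb1, the remaining one, has no named probe set here. By role, 14 belong to S phase and its start, 13 to mitosis, 4 are the subunits of the NDC80 complex, and 4 act in G1 or inhibit cyclin-dependent kinases.

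The animals were C57BL/6J mice, all male and of 1 inbred strain, bought at 3 weeks of age and kept on the low-fat diet for 1 week. They were then given either that diet, with fat at 10 kcal%, or a high-fat diet with fat at 45 kcal%, for 4 weeks. Livers were taken on day 30 after a fast of 16 h, and the labels give the age as 8 weeks. Each diet had 10 mice and each mouse 1 array; the design also has high-fat groups with maple syrup extract added, which are not analysed here.

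Cells copy their DNA in S phase and part the copies in mitosis. The minichromosome maintenance proteins (Mcm2 to Mcm7) form the replicative helicase, ribonucleotide reductase supplies deoxynucleotides, and cyclin E with Cdk2 starts the phase. In mitosis the kinetochore, a protein assembly on the centromere, ties each chromosome to spindle microtubules, and the NDC80 complex, built from Ndc80, Nuf2, Spc24 and Spc25, is the part that grips the microtubule. Hepatocytes of an adult liver are mostly quiescent and re-enter the cycle after injury or tissue loss, so few liver cells divide at a given time. Many of these genes are switched off in resting cells by the DREAM complex, which sits at E2F sites in S phase genes and at the cell cycle homology region (CHR) in mitotic genes.

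Expression was read as a deposited score per probe set, whose level runs like a log2 intensity, from 5.18 to 15, but whose differences between arrays were compressed: 98.2% of probe sets had an SD over the arrays below 0.001. Sizes are therefore given as standardised differences, the high-fat mean minus the low-fat mean in units of the SD within diets, with a 95% interval. Values of single mice are given in the same SD units, counted from the low-fat mean of that gene. They are not fold changes, and sizes in score units cannot be set side by side between genes. A gene was called where limma's adjusted p, over all 18193 genes, was below 0.05. The p-values measure the spread between these mice. Whole-liver RNA was measured, so fewer cells of a type and less RNA per cell cannot be told apart.

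In the share of genes called, the cell cycle genes as a whole were close to the background of the array. Of the 35 measured, 2 were called (5.71%), against 3.49% of all genes. Spc25 was the 1 lower call (2.86% of the members, against 1.78% of all genes called lower) and Cdk4 the 1 higher call (2.86%, against 1.71% of all genes called higher). The direction leaned to lower values: 23 of the 35 genes were lower on the high-fat diet, with a median standardised difference of -0.35. Of all genes 47.5% were lower and the median was 0.04. An unadjusted limma p below 0.05 was found for 7 of the 35 (20%, against 16.9% of all genes). Of these 6 were lower (17.1%, against 8.01% of all genes) and 1 was higher. Many of the genes had low scores, as 23 of 35 lay below the median level of all genes. Over every named probe set of the members, 47 of 76 were lower and 1, that of Spc25, was called in a fit of all probe sets, where 2.32% of probe sets were called.

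**Figure D1:**
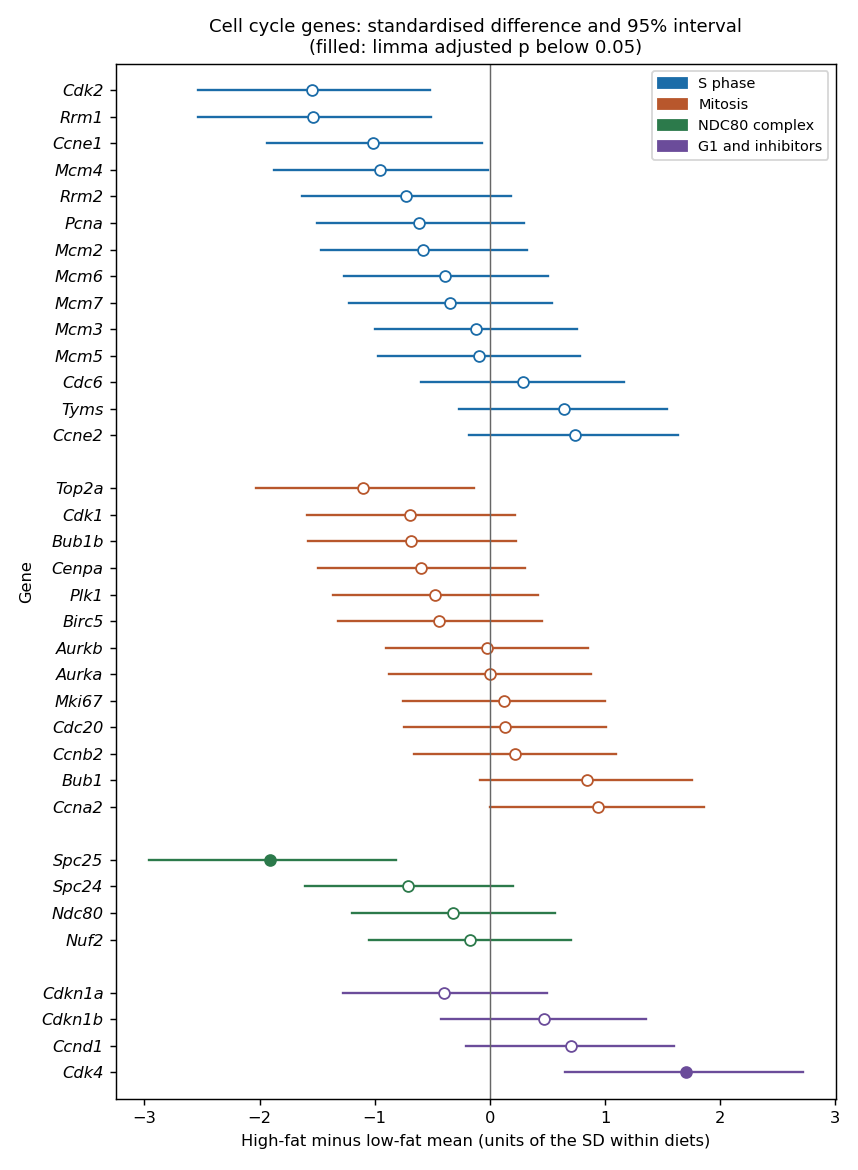
Standardised differences between the diets (high-fat minus low-fat mean in units of the SD within diets, n = 10 mice per diet) for the 35 measured genes by role, with 95% intervals. Filled points, Spc25 at -1.91 and Cdk4 at 1.70, mark limma adjusted p below 0.05. The S phase genes lean to the left, while the mitotic genes spread on both sides of 0.

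Within the NDC80 complex, Spc25 fell and the other three subunits did not pass the test. Spc25 pairs with Spc24 in the globular head that docks the complex to the inner kinetochore. In the low-fat mice its score ran from -1.15 through a median of -0.06 to 1.94 SD units, and in the high-fat mice from -3.30 through -1.93 to 0.50. Of the 10 high-fat mice, 8 lay below every low-fat mouse, and high-fat replicate 3 was the one high value, so the diets overlapped through a few animals. The standardised difference was -1.91 (95% interval -2.96 to -0.82, limma adjusted p = 0.0187), and the high-fat mouse was higher in 9 of 100 pairs. In the deposited score the mean was 6.9807 ± 0.00577 (SD, n = 10) on the low-fat diet and 6.9682 ± 0.00731 (SD, n = 10) on the high-fat diet. Its level ranked at percentile 50.4 of all genes.

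A second Spc25 probe set, with a lower score, differed by -0.38 (limma adjusted p = 0.745 over all probe sets), and 7 of 10 high-fat mice lay below its low-fat median. The call of Spc25 came from its brighter probe set. Its mean over both probe sets gave -1.35 (adjusted p = 0.0687), and the call held in 8 of 11 alternatives and with each array left out in turn. The poly-A spike-in controls, bacterial RNAs added to each sample before labelling, were lower in part of the high-fat arrays: 10 of their 24 probe sets had an unadjusted p below 0.05, all 10 lower, and 0 of 24 were higher. Their mean, counted in SD units from the mean over all 20 arrays, ran from 0.15 to 0.98 in the low-fat mice and from -2.44 to 1.16 in the high-fat mice. With that mean as a covariate Spc25 stood at -1.83 (limma adjusted p = 0.0558).

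Spc24, the partner of Spc25, ran from -1.96 through -0.03 to 2.06 SD units in the low-fat mice and from -1.54 through -0.73 to 0.04 in the high-fat mice. No high-fat mouse lay below the lowest low-fat mouse, although 9 of 10 lay below the low-fat median, and the difference was -0.71 (95% interval -1.61 to 0.20, limma adjusted p = 0.446). Ndc80, the microtubule-binding subunit that names the complex, ran from -1.48 through a median at the low-fat mean to 1.24 on the low-fat diet and from -2.54 through 0.06 to 1.20 on the high-fat diet. Its difference was -0.32 (95% interval -1.20 to 0.56, limma adjusted p = 0.781). Nuf2, which pairs with Ndc80, ran from -2.16 through 0.34 to 1.15 on the low-fat diet and from -1.71 through -0.06 to 1.22 on the high-fat diet, a difference of -0.17 (95% interval -1.05 to 0.71, limma adjusted p = 0.895). For Ndc80 and Nuf2 the diets overlapped almost fully. The levels of these 2 genes ranked at percentiles 9.15 and 8.20 of all genes. Whether the change of Spc25 differed from that of the other subunits was not tested.

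**Figure D2:**
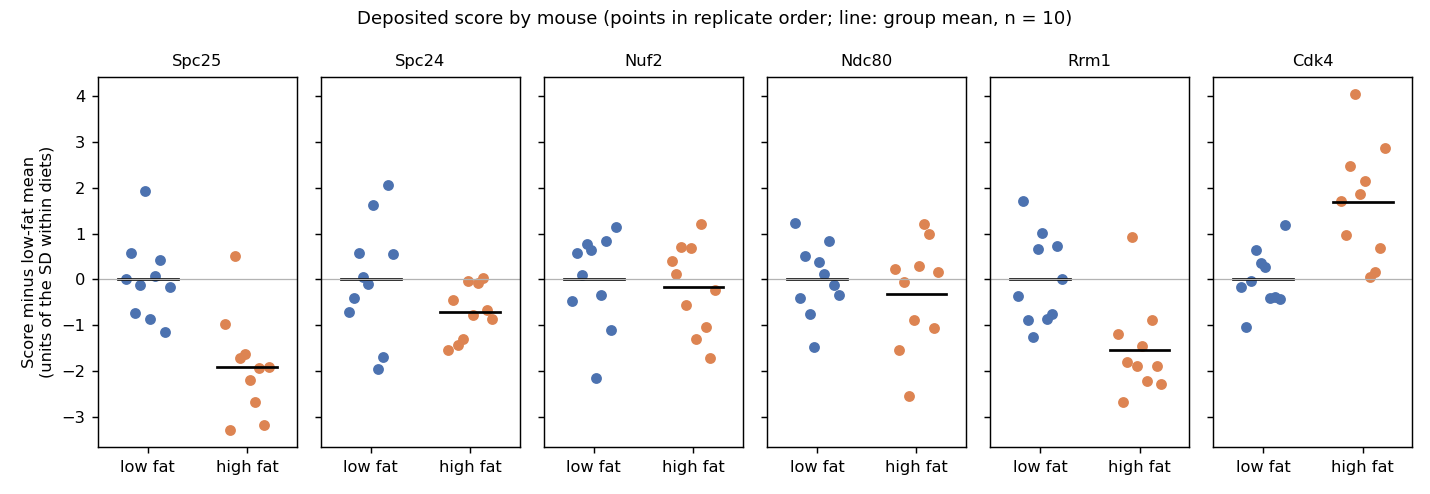
Deposited scores by mouse for the NDC80 subunits Spc25, Spc24, Nuf2 and Ndc80, and for Rrm1 and Cdk4, counted from each gene's low-fat mean in units of the SD within diets (n = 10 mice per diet, points in replicate order, lines at group means). For Spc25, 8 of 10 high-fat mice lie below every low-fat mouse, and for Cdk4, 6 of 10 lie above every low-fat mouse.

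Across mice of 1 diet, the relation of Spc25 to the other subunits was negative for Spc24 and positive for Nuf2, with none past the threshold. Spc25 was set against each of the other three subunits within each diet, 6 relations in all. With Spc24 the relation was negative: Pearson r was -0.548 in the low-fat mice (permutation p = 0.0987, adjusted over the 6 relations 0.197) and -0.584 in the high-fat mice (permutation p = 0.071, adjusted 0.197). Spearman rho was -0.794 in the low-fat mice (permutation p = 0.0086, adjusted 0.0516) and -0.527 in the high-fat mice (permutation p = 0.123, adjusted 0.357). Without the 2 mice farthest from the median of Spc25, r was -0.756 and -0.433. With Nuf2, r was 0.572 in the low-fat and 0.383 in the high-fat mice, with adjusted permutation p of 0.197 and 0.339. With Ndc80, r was -0.498 and 0.156, with adjusted permutation p of 0.212 and 0.671. None of these 6 relations passed the threshold after adjustment.

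The promoter windows of Spc25 and Ndc80 are printed because Spc25 carried the call and Ndc80 did not. RefSeq promoter windows (assembly GRCm38.p6) run from 250 bases before to 50 bases after a gene's start. Spc25 lies on the minus strand with its window at chr2:69206164-69206463, and Ndc80 on the minus strand at chr17:71526808-71527107. Both are read 5′ to 3′ on the strand of the gene, and capitals mark matches to the motifs CHR (spelled TTTGAA, or in its other form TTCGAA), the NF-Y box (spelled CCAAT) and E2F (spelled TTCCCGC, or in its other forms TTGGCGC and also TTCGCGC), searched on both strands.
Spc25: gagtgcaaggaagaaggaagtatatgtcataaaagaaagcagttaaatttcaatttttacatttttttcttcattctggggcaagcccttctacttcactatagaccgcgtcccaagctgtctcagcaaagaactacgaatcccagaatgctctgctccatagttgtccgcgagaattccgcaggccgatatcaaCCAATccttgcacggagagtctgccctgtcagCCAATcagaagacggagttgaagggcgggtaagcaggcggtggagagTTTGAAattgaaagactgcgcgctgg
Ndc80: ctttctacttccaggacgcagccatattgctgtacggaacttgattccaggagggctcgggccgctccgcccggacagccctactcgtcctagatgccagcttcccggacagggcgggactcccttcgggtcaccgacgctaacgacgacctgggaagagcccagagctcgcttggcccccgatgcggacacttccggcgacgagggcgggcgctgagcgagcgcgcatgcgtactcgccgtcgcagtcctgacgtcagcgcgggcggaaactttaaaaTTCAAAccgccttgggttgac
The window of Spc25 holds the NF-Y box at positions -55 to -51 and -23 to -19 and the CHR letters at positions 25 to 30, counted from the start. That of Ndc80 holds the CHR letters on the reverse strand at positions 30 to 35 and no NF-Y box. Nostrin and G6pc2, the genes with named probe sets on either side of Spc25 on chromosome 2, differed by 1.28 (limma adjusted p = 0.12) and -0.26 (adjusted p = 0.834).

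S phase genes leaned lower with none called. Of the 14, 11 were lower on the high-fat diet, with a median standardised difference of -0.48. An unadjusted limma p below 0.05 was found for 4, all 4 lower (28.6%, against 16.9% of all genes at that p and 8.01% lower at that p). The mean of the 14 genes in each mouse ran from -0.51 through 0.01 to 0.53 SD units on the low-fat diet and from -0.83 through -0.52 to 0.39 on the high-fat diet, so the diets overlapped. Taken over all 36 named probe sets of these genes, 25 were lower and 9 had an unadjusted p below 0.05, of which 7 were lower. The share of all probe sets at that p was not counted, and probe sets of 1 gene are not separate evidence.

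Rrm1, the large subunit of ribonucleotide reductase, and Cdk2, the kinase that cyclin E activates, differed most. Rrm1 ran from -1.26 through -0.17 to 1.71 SD units in the low-fat mice and from -2.68 through -1.84 to 0.93 in the high-fat mice. Of the high-fat mice, 7 lay below every low-fat mouse, and high-fat replicate 4 was the one high value. The difference was -1.54 (95% interval -2.53 to -0.51, limma adjusted p = 0.059). Cdk2 ran from -1.32 through -0.17 to 2.11 in the low-fat mice and from -3.46 through -1.63 to 0.48 in the high-fat mice, where again 7 lay below every low-fat mouse. Its difference was -1.54 (95% interval -2.54 to -0.52, limma adjusted p = 0.0579). Both missed the threshold by little and passed it in some settings: Rrm1 had an adjusted p of 0.012 without high-fat replicate 4 and 0.0448 without low-fat replicate 4, and by the exact rank sum test 0.048. Cdk2 had 0.0185 without high-fat replicate 3, 0.0441 without low-fat replicate 6 and 0.0402 with array weights. Among the genes above the median level, adjusted p was 0.0396 for Rrm1 and 0.0379 for Cdk2. Other settings made them smaller: quantile normalisation gave -0.97 for Rrm1 (adjusted p = 0.16) and -0.62 for Cdk2 (adjusted p = 0.374), and the mean over its probe sets gave -1.01 for Rrm1 (adjusted p = 0.28). The other probe sets of Rrm1 stood at -0.88 and 0.31, and that of Cdk2 at -0.64.

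Rrm2, the small subunit of the same reductase, differed by -0.73 (limma adjusted p = 0.431). Of the helicase subunits, Mcm4 differed by -0.96 (adjusted p = 0.272), Mcm2 by -0.58, Mcm6 by -0.39, Mcm7 by -0.35, Mcm3 by -0.12 and Mcm5 by -0.10. All 6 helicase genes were thus on the lower side in the probe set used, by amounts from -0.96 to -0.10, and none passed the test. For Mcm2, Mcm3, Mcm5 and Mcm7 that probe set is of the type that can bind other transcripts. The other probe set of Mcm2 stood at 0.195, and those of Mcm5 at -0.67 and 0.42. Their probe sets did not always match: Mcm6 stood at -1.50 in a dimmer probe set (limma adjusted p = 0.0796 over all probe sets), Mcm7 at -1.12 in another (adjusted p = 0.215) and Mcm3 at 0.96 in another (adjusted p = 0.306). Pcna, the sliding clamp of the DNA polymerases, differed by -0.61 and Ccne1, cyclin E1, by -1.01 (adjusted p = 0.237). The probe set of Ccne1 is of the type that can bind other transcripts, and its other probe set stood at 0.14. Without such probe sets 9 of the 14 S phase genes were lower, and after quantile normalisation Ccne1 stood at -0.01.

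The other three S phase genes were on the higher side. Ccne2, cyclin E2, ran from -1.54 through 0.04 to 1.89 SD units on the low-fat diet and from -1.45 through 0.80 to 2.07 on the high-fat diet, a difference of 0.74 (limma adjusted p = 0.427). Tyms, thymidylate synthase, ran from -1.35 through -0.20 to 1.67 and from -0.93 through 0.46 to 2.24, a difference of 0.64 (adjusted p = 0.507). Cdc6, which loads the helicase, differed by 0.29. The diets overlapped in all 3 genes, and these were the 3 S phase genes with the lowest levels, with Ccne2 at percentile 8.26 and Cdc6 at percentile 2.15 of all genes.

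**Figure D3:**
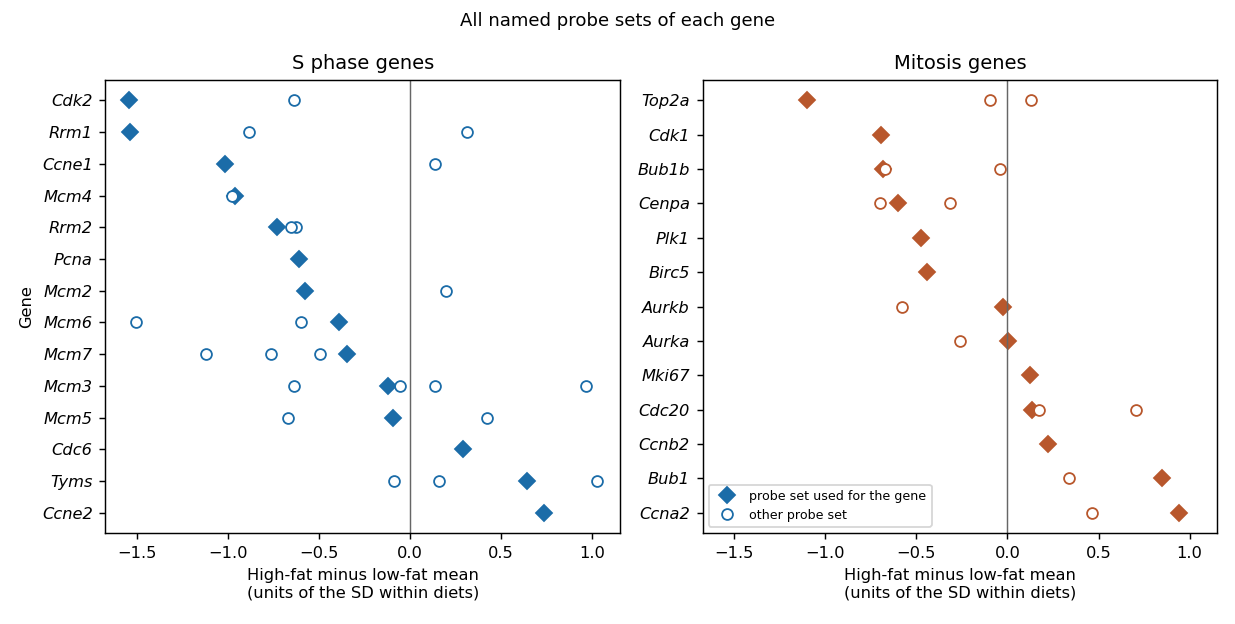
Standardised differences (high-fat minus low-fat mean in units of the SD within diets, n = 10 mice per diet) of every named probe set of the S phase and mitotic genes. Diamonds are the probe set used for the gene and circles its other probe sets. Of the S phase probe sets 25 of 36 are lower, and of the mitotic ones 14 of 25.

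The windows of Rrm1 and Cdk2, the S phase genes that differed most, hold E2F and NF-Y matches, shown in capitals. Not every S phase gene has E2F letters in its window. That of Rrm1 lies on the plus strand at chr7:102441445-102441744 and that of Cdk2 on the minus strand at chr10:128705002-128705301 (RefSeq, assembly GRCm38.p6).
Rrm1: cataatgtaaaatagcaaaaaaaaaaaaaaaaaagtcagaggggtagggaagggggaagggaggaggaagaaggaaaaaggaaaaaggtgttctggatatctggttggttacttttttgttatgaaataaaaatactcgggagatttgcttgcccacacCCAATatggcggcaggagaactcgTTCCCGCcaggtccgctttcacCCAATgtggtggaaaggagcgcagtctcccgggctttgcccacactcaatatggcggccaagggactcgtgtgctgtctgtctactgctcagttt
Cdk2: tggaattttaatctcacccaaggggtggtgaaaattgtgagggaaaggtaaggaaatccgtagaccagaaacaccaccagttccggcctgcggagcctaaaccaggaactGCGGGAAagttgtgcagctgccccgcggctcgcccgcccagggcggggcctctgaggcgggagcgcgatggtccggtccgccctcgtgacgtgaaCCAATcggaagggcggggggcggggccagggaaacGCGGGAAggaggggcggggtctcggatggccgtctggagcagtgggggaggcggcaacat
The E2F letters lie at positions -67 to -61 in Rrm1, and on the reverse strand at positions -140 to -134 and -10 to -4 in Cdk2. Neither window holds the CHR letters.

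Replication genes outside the 36 were also read, from a list chosen with earlier results of these data known, so that its count is not independent evidence. Of 30 measured replication genes (32 listed), 20 were lower, with a median of -0.37. Of the 30, 4 were called, all lower (13.3%, against 3.49% of all genes called and 1.78% called lower). An unadjusted limma p below 0.05 was found for 5 (16.7%, against 16.9% of all genes), 4 lower and 1 higher. Tk1, thymidine kinase 1, which salvages thymidine for DNA synthesis, fell by the most: from -1.48 through -0.17 to 2.61 SD units on the low-fat diet to -3.93 through -2.42 to -1.45 on the high-fat diet, with only the edges of the diets overlapping. Its difference was -2.42 (95% interval -3.58 to -1.23, limma adjusted p = 0.00417), and the high-fat mouse was higher in 1 of 100 pairs. Gmnn, geminin, which blocks a further round of helicase loading, fell by 1.65 (adjusted p = 0.0418). Gins4, a subunit of the active helicase, fell by 1.65 (adjusted p = 0.0431), and Slbp, the binding protein of histone mRNA stem-loops, fell by 1.64 (adjusted p = 0.0439). The call of Tk1 held in every alternative and with every array left out, while Gmnn, Gins4 and Slbp were called in 6 of 11 alternatives each. After quantile normalisation Gins4 stood at -0.16 (adjusted p = 0.853) and Slbp turned to 1.25. The mean over its probe sets gave -0.90 for Slbp (adjusted p = 0.356).

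Mitotic genes showed no lean. Of the 13 measured, 7 were lower and 6 higher, the median standardised difference was -0.02 and none was called. An unadjusted limma p below 0.05 was found for 1, which was lower (7.69%, against 16.9% of all genes at that p and 8.01% lower at that p). The mean of the 13 genes had a median of 0.03 SD units in the low-fat mice and -0.11 in the high-fat mice. Mki67, the standard marker of cycling cells, differed by 0.12 (95% interval -0.76 to 1.00, limma adjusted p = 0.931), and turned to -1.55 (adjusted p = 0.0374) after quantile normalisation, a scaling that moved the median over all genes from 0.04 to -0.41.

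Top2a, the topoisomerase that untangles sister DNA, differed most on the lower side. It ran from -1.88 through a median at the low-fat mean to 1.63 SD units on the low-fat diet and from -2.68 through -0.84 to 0.14 on the high-fat diet. The difference was -1.10 (95% interval -2.03 to -0.14, limma adjusted p = 0.204), and its other probe sets stood at 0.13 and -0.10. Cdk1, the kinase that drives entry into mitosis, ran from -1.38 through -0.09 to 2.69 and from -1.68 through -0.76 to 0.61, a difference of -0.69 (adjusted p = 0.465). For both genes the diets overlapped.

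Ccna2, cyclin A2, ran the other way, from -2.23 through 0.18 to 1.40 SD units on the low-fat diet and from -0.50 through 1.09 to 1.91 on the high-fat diet, where 5 mice lay above every low-fat mouse. Its difference was 0.94 (limma adjusted p = 0.299), and it turned sign in 1 of 10 alternatives, to -0.71. Bub1, a kinase of the spindle checkpoint, ran from -1.62 through 0.01 to 1.93 and from -0.55 through 0.80 to 2.03, a difference of 0.85 (adjusted p = 0.36). Bub1b, its partner in the checkpoint, stood at -0.68, on the other side. Of the rest, Cenpa, the centromeric histone, stood at -0.60, the kinase Plk1 at -0.48 and Birc5 (survivin) at -0.44. The kinases Aurkb and Aurka stood at -0.02 and 0.00, Cdc20, which activates the anaphase ligase, at 0.13, and Ccnb2, cyclin B2, at 0.22. These 7 genes had adjusted p from 0.535 to 0.998. Ccnb2 turned sign in 1 of 10 alternatives, to -0.95.

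The windows of Plk1 and Cdc20 are shown as the mitotic type, with the CHR letters beside the NF-Y box in capitals. Plk1 lies on the plus strand at chr7:122159185-122159484 and Cdc20 on the minus strand at chr4:118437294-118437593 (RefSeq, assembly GRCm38.p6).
Plk1: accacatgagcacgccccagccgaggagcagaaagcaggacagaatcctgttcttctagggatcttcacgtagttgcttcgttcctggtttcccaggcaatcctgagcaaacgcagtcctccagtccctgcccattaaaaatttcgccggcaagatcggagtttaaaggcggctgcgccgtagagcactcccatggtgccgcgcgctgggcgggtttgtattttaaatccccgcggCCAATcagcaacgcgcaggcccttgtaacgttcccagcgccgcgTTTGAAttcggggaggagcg
Cdc20: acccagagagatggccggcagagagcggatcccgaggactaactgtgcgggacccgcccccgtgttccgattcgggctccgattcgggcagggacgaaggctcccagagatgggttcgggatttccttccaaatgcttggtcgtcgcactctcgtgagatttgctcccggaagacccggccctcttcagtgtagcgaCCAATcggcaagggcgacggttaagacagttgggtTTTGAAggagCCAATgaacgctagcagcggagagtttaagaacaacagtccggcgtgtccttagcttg
In Plk1 the NF-Y box lies at positions -14 to -10 and the CHR letters at positions 31 to 36. In Cdc20 the CHR letters lie at positions -18 to -13, between NF-Y boxes at positions -53 to -49 and -8 to -4.

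The promoter letters differed between the S phase and the mitotic members. Of the 35 genes, 29 were matched in the promoter table. The CHR letters were found in 10 of 11 mitotic genes (90.9%) and in 2 of 12 S phase genes (16.7%), against 21.7% of all 27025 genes with a window. E2F letters were found in 7 of 12 S phase genes (58.3%) and in 2 of 11 mitotic genes (18.2%), against 9.20% of all genes. The NF-Y box was found in 9 of 12 S phase genes (75.0%) and 10 of 11 mitotic genes (90.9%), against 41.1% of all genes. Of 3 matched NDC80 genes, 2 held the CHR letters, 1 the NF-Y box and 0 the E2F letters. Of 3 matched genes of G1 and its inhibitors, 0 held the CHR letters, 1 the NF-Y box and 0 the E2F letters. A match is a description of the letters in the window and says nothing of binding in these livers.

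**Figure D4:**
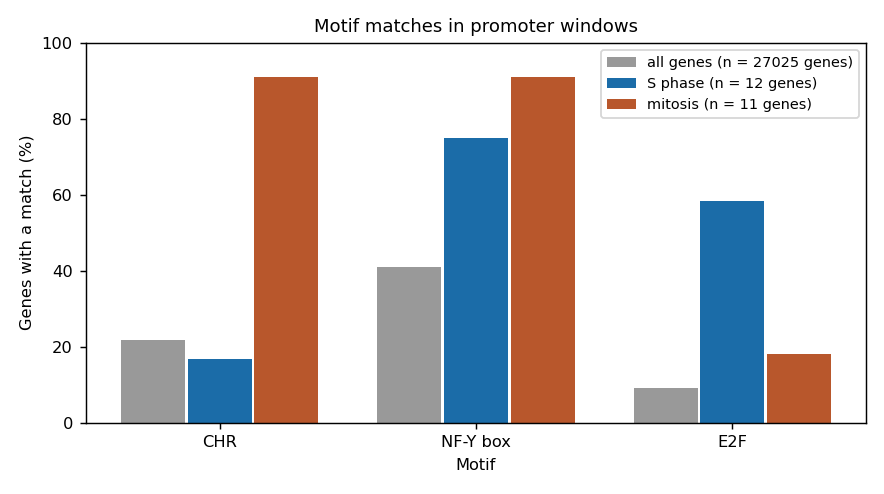
Share of genes (%) whose promoter window holds the CHR, NF-Y box or E2F letters on either strand, for all 27025 genes of the promoter table, 12 S phase and 11 mitotic genes. The CHR letters stand at 90.9% of mitotic and 16.7% of S phase genes, and the E2F letters at 18.2% and 58.3%.

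Of the 4 genes of G1 and its inhibitors, 3 were higher and 1, Cdk4, was called. That is 25% of the 4, against 3.49% of all genes called and 1.71% called higher, a share that rests on this 1 gene. Cdk4 is the kinase that cyclin D activates in G1. It ran from -1.05 through -0.10 to 1.19 SD units on the low-fat diet and from 0.05 through 1.79 to 4.05 on the high-fat diet, so that 10 of 10 high-fat mice exceeded the median of the low-fat diet and 6 exceeded every low-fat mouse. The difference was 1.70 (95% interval 0.65 to 2.72, limma adjusted p = 0.0415), with the high-fat mouse higher in 90 of 100 pairs. This probe set carries a suffix for probes that can bind other transcripts. The other probe sets of Cdk4 stood at -0.16 (adjusted p = 0.907 over all probe sets) and 0.85 (adjusted p = 0.379), and the called one had an adjusted p of 0.052 in that fit. Cdk4 was called in 4 of 11 alternatives, and in 6 of 20 fits with an array removed, with adjusted p from 0.0227 to 0.0733. It turned to -0.56 (adjusted p = 0.431) after quantile normalisation. Its neighbours on chromosome 10 were Marchf9 at -0.26 (adjusted p = 0.83) and Tspan31, which overlaps it, at -0.41 (adjusted p = 0.707). The promoter window of Cdk4 holds none of the 3 motifs.

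Ccnd1, cyclin D1, the partner of Cdk4, ran from -1.33 through -0.01 to 1.08 SD units on the low-fat diet and from -0.90 through 0.60 to 2.61 on the high-fat diet, a difference of 0.70 (limma adjusted p = 0.452). Cdkn1b, the inhibitor p27, ran from -0.77 through -0.29 to 1.52 and from -0.84 through 0.46 to 2.76, a difference of 0.47 (adjusted p = 0.65). Cdkn1a, the inhibitor p21 and a p53 target, ran from -0.50 through -0.02 to 0.76 on the low-fat diet and from -3.22 through 0.03 to 0.79 on the high-fat diet, a difference of -0.39 (adjusted p = 0.716). Its medians were close, but its SD was 3.66 times as large in the high-fat mice: high-fat replicates 3 and 5 stood at -3.22 and -2.45.

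**Figure D5:**
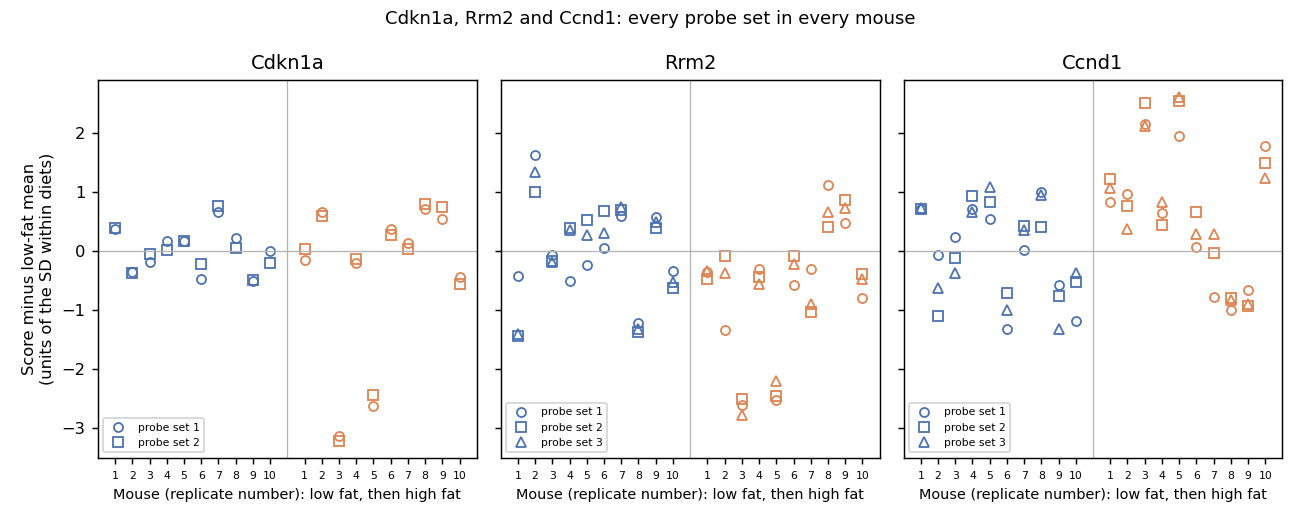
Scores of every probe set of Cdkn1a, Rrm2 and Ccnd1 in each mouse, counted from the low-fat mean in units of the SD within diets (low-fat replicates 1 to 10 on the left, high-fat on the right). High-fat replicates 3 and 5 stand at -3.22 and -2.45 for Cdkn1a and at 2.12 and 2.61 for the used probe set of Ccnd1, and in 1 probe set of Ccnd1 high-fat replicate 10, at 1.77, is close to both.

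Other regulators of the cycle gave 3 further calls. Over all lists of related genes, chosen with earlier results of these data known, 128 of 134 genes were measured. Of these 7 were called, all lower (5.47%, against 3.49% of all genes called and 1.78% called lower). They include the 4 replication genes above. An unadjusted limma p below 0.05 was found for 22 of the 128 (17.2%, against 16.9% of all genes), 13 lower and 9 higher. Of 9 other G1 cyclins and inhibitors, 6 were lower and Cdkn2c, the inhibitor p18 of Cdk4 and Cdk6, fell by 2.39 (95% interval -3.55 to -1.20, limma adjusted p = 0.00429), with the high-fat mouse higher in 5 of 100 pairs. Its call held in every alternative and with every array left out. Of these 9 genes, 3 had an unadjusted limma p below 0.05 (33.3%, against 16.9% of all genes), 2 lower and 1 higher. Of 26 other kinetochore genes, 12 were lower and the median was 0.03. Cenpw, a DNA-binding subunit of the inner kinetochore, fell by 1.77 (adjusted p = 0.0292), a call that held in 7 of 10 alternatives. Of the 26, 4 had an unadjusted limma p below 0.05 (15.4%), 3 lower and 1 higher. Of 19 E2F and DREAM genes, 10 were lower and Lin9, a core subunit of DREAM, fell by 1.61 (adjusted p = 0.0495). That call held in 3 of 10 alternatives. For Lin9, quantile normalisation gave -0.92 (adjusted p = 0.198) and the mean over its probe sets -0.97 (adjusted p = 0.244). Of the 19, 5 had an unadjusted limma p below 0.05 (26.3%, against 16.9% of all genes). These went both ways, 2 lower and 3 higher, and the largest rise in the list was 1.55. Of 30 genes of the spindle checkpoint and mitotic exit, 14 were lower, none was called and 3 had an unadjusted limma p below 0.05 (10.0%, against 16.9% of all genes), with the smallest adjusted p at the kinase Nek2 (-1.41, adjusted p = 0.0812). Of 14 genes of the p53 response, 6 were lower, none was called and 2 had an unadjusted limma p below 0.05 (14.3%). The smallest adjusted p was that of Sesn1 (1.08, adjusted p = 0.202).

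The liver label was checked against markers. The 9 measured hepatocyte genes had a median level at percentile 99.8 of all genes, and none of 7 cell type lists held a gene called by limma. An unadjusted p below 0.05, reached by 16.9% of all genes, was found for 1 of 9 hepatocyte, 1 of 11 leukocyte, 1 of 8 endothelial and 2 of 8 stellate markers, and for 0 in the rest. Leukocyte markers were lower in 8 of 11 genes, with a mean per mouse from -0.25 to 0.25 SD units on the low-fat diet and from -1.05 to 0.90 on the high-fat diet; the gene with the smallest adjusted p was S100a9 (-1.13, limma adjusted p = 0.182). Among the other lists, the gene with the smallest adjusted p was Ttr for hepatocytes (-3.12, adjusted p = 0.224, with the high-fat mouse higher in 0 of 100 pairs), Clec4f for Kupffer cells (0.72, adjusted p = 0.442), Stab1 for endothelium (-1.14, adjusted p = 0.176) and Rgs5 for stellate cells (1.19, adjusted p = 0.154). It was Epcam for cholangiocytes (-0.65, adjusted p = 0.499) and Alas2 for erythroid cells (0.51, adjusted p = 0.613). For Ttr the diets did not overlap, as was so for 50 of all genes. The SD of its score ranked at percentile 0.077 of all genes, and limma's moderation, which adds a variance shared by all genes, lowers the statistic of such genes. The part of these cell types in the results was not tested.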

How the data were processed

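Liver RNA of 20 mice, 10 per diet, was hybridised to 3′ expression arrays, 1 per mouse, per the labels' protocols. The authors' deposited value table holds a score per probe set (summarisation and normalisation: not given in the sources used here). Test planning had assumed values like log2 intensities. Because the scores were compressed, the linear model was kept and sizes were standardised, which rests on a score rising with its transcript, a point not tested. The median SD over arrays was 1.17e-05, 0 pairs of arrays were identical, and each array held the most extreme value of 1.45 to 10.3% of genes, where an even share is 5%. Depth has no count here, so the 20 arrays limit the precision.

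Of 45037 probe sets that are not controls, 34945 had 1 gene symbol, 932 several and 9160 none. They gave 18193 genes, with no filter on low values. The test between diets was limma's two-sided moderated linear model (version 3.58.1, R version 4.3.3; prior degrees of freedom 0.724), with Benjamini-Hochberg adjustment at 0.05. It was first tested on simulated data with 200 of 18193 genes shifted and normal noise drawn independently for each gene. Of the genes shifted by 1 SD 2.99% were called, by 2 SD 52.2% and by 3 SD 93.9%, with 2 false calls. A gene not called is therefore not shown to be unchanged. The simulation held no variation shared between genes, so its rates need not carry over to these arrays, where 635 genes were called. Intervals come from the noncentral t distribution. Correlations used 100000 resamples in scipy 1.17.1.

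The members and gene lists were chosen with earlier results of these data known. Every member is named; mouse values are given for called genes, NDC80 subunits and the 2 largest rises and falls per role group. Of each other list, called genes (at most 5) or else the gene with the smallest adjusted p are named, and the nearest named gene on each side of a called member. Alternatives were quantile normalisation, centring, an unmoderated model, robust fitting with a variance trend, weights for arrays, a replicate block, a rank sum test, other choices of probe set, only genes above the median by mean, each array left out and, chosen after seeing the data, the poly-A covariate and the same alternatives for genes of the other lists.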

Additional observations from a re-analysis of the deposited data

Results flagged for a closer look

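A mouse far from the others of its diet was found in 4 of the 70 groups examined (35 genes in 2 diets), by the gap to the nearest mouse divided by the range of the group; chance gives about 1 in 20 groups. For Mcm2, low-fat replicate 2 was the high value, with a gap of 0.525 of the range, and the gene differed by -0.37 without that mouse (limma adjusted p = 0.759). For Mcm6, high-fat replicate 3 was the high value (0.573), and the difference was -0.63 without it (adjusted p = 0.519). For Rrm1, high-fat replicate 4 was the high value (0.505), and the difference was -2.23 without it (adjusted p = 0.012), which passes the threshold. For Aurka, high-fat replicate 5 was the high value (0.547), and the difference was -0.44 without it (adjusted p = 0.704).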

How the results depend on the processing

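The number of called members, 2 in the reported fit, was 1 after centring on standardised values, with a variance trend and robust fitting, with a replicate block, and without cross-hybridising probe sets. It was 0 when probe sets of a gene were averaged and with the poly-A covariate, 3 after quantile normalisation and by the exact rank sum test, 4 among the 12 members above the median level, and between 1 and 3 with an array left out. Lower S phase members numbered 4 of 4 and lower mitotic members 1 of 2 among these. With an array left out they numbered 10 to 11 and 6 to 9. After quantile normalisation, under which 1488 genes were called, 144 higher and 1344 lower, Mki67 stood at -1.55, Cdk4 at -0.56 and Slbp at 1.25, and Mcm3 at -1.82 (limma adjusted p = 0.0198); the cause was not tested. In deviations from the mean of their diet, same-numbered mice correlated from -0.16 to 0.26, with 2 of 10 pairs above 0.1. Such correlations cannot show whether the replicate numbers stand for a pairing or a batch. With the replicate block, 421 genes were called in place of 635, and Spc25 had an adjusted p of 0.0571. With an array left out, Spc25 kept adjusted p from 0.00328 to 0.036, Cenpw was called in 15 of 20 fits, Gmnn in 5, Gins4 in 8, Slbp in 6 and Lin9 in 4. Of 360 member values under other settings, 18 turned sign. Low scores limit what can be said of the dimmer genes, since background was not measured apart.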

Other observations

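High-fat replicates 3 and 5 held extreme values in 3 genes of the G1 to S transition, a pattern noticed after the values were seen and not tested. Both probe sets of Cdkn1a were low in these mice, at -3.22 and -2.45 SD units in the used one and -3.14 and -2.63 in the other. All 3 probe sets of Rrm2 were low, at -2.62 and -2.53 in the used one, -2.52 and -2.46 in another, and -2.79 and -2.21 in the third. All 3 probe sets of Ccnd1 were high, at 2.12 and 2.61 in the used one, 2.15 and 1.95 in another, and 2.50 and 2.54 in the third. High-fat replicate 10 was also high for Ccnd1, at 1.23, 1.77 and 1.48 in the same order. For Spc25 replicates 3 and 5 stood at 0.50 and -1.64, so that score did not set the pair apart. The same mice were the highest high-fat mice for some other members. For Mcm5 they stood at 1.80 and 1.47, with the highest low-fat mouse at 1.76. For Cdc6 they stood at 1.35 and 1.84, with the highest low-fat mouse at 1.44. The pair was thus not set apart by Cdkn1a, Rrm2 and Ccnd1 alone. Among the high-fat mice, replicate 3 was the lowest for Cdkn1a and Rrm2. It was the highest for Spc25, Cdk2, Mcm2, Mcm4, Mcm5, Mcm6, Mcm7, Ccne2, Mki67 and Ccnb2.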
